A study of Mus musculus with 6 samples.

Results

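The genes described here are 10 nuclear genes of mitochondrial fusion (Mfn1, Mfn2, Opa1), fission (Dnm1l, Fis1, Mff), mitophagy (Pink1, Bnip3) and biogenesis (Nrf1, Tfam), out of 29072 genes in the deposited table. They were chosen by symbol. Where a gene had several transcript rows, the RefSeq row with the highest overall mean stood for it. The data are RNA sequencing levels of brown adipose tissue from between the shoulder blades (interscapular), a fat that burns fuel to make heat, in 3 libraries of UCP1(-/-) mice (UCP1 knockout) and 3 libraries of wildtype mice. Both groups are on the C57BL/6J strain. UCP1 is the uncoupling protein that lets brown fat mitochondria turn the proton gradient into heat, and the comparison asks which transcripts of the tissue differ when it is missing. The labels used here give no age, sex, housing temperature or time of day, and do not say whether each library came from its own animal. P-values therefore measure the spread between these libraries, which may be technical.

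Mitochondria form a network that is joined by fusion and divided by fission. Mitofusins join the outer membranes and Opa1 the inner ones, while the GTPase Drp1, the product of Dnm1l, is brought to the outer membrane by adaptors such as Mff and constricts it. Damaged organelles are handed to autophagy by the kinase Pink1 with the ligase Parkin, or by membrane receptors such as Bnip3, and new mitochondrial mass depends on nuclear factors such as Nrf1 and on Tfam, which packages and transcribes mitochondrial DNA. Brown adipocytes are packed with mitochondria, and much of the control of these proteins, by cleavage and phosphorylation, is not seen in RNA.

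Levels are in RPKM, reads divided by transcript length and library depth, so that genes can be compared per length. The spacing of the lowest values implied 15781900 to 18031700 reads in the knockout libraries and 16235600 to 16337600 reads in the wildtype libraries. Ucp1 itself measured 375, 389 and 372 RPKM in the knockout libraries and 3096, 1714 and 3151 RPKM in the wildtype libraries (limma, log2 difference -2.75, adjusted p = 0.000405). Of 14 brown adipocyte markers, 2 rose (Ppara, Elovl3) and 2 fell (Ucp1, Prdm16), beside 6.95% and 0.718% of all tested genes, with no marker at 0. Their summed level was 14551 to 15430 RPKM in knockout and 16047 to 17297 RPKM in wildtype libraries. This sum includes Ucp1, the targeted gene, so no difference in brown adipocyte RNA is read from it. The median log2 difference of the 14 was -0.002, with 6 higher and 8 lower in the knockout. Ppara and Elovl3 did not pass after scaling (limma, adjusted p = 0.0684 and 0.0712), and with a library left out Ppara, Elovl3 and Prdm16 passed in some of the 6 cases and not in others. All 20 skeletal muscle markers rose, and their summed level was 1925 to 2201 RPKM in knockout against 68.2 to 319.6 RPKM in wildtype libraries. Acta1, the muscle actin, measured 425, 424 and 342 RPKM in knockout and 46.5, 57.0 and 8.54 RPKM in wildtype libraries. White adipocyte markers summed to 101 to 174 RPKM in knockout and 35.7 to 106 RPKM in wildtype libraries. Macrophage markers summed to 79.1 to 109 RPKM in knockout and 49.8 to 78.3 RPKM in wildtype libraries. Of the former 1 of 5 passed the test (Agt, higher) and of the latter 1 of 11 (Mpeg1, higher), beside 6.95% of all tested genes. All 5 white adipocyte markers had a positive log2 difference (median 1.05), as did 10 of 11 macrophage markers (median 0.41). At an unadjusted p under 0.05 by limma the counts were 3 and 8, beside 23.5% of all tested genes. Agt did not pass without knockout replicate 2 or 3 or wildtype replicate 1 or 3 (limma, adjusted p 0.0688 to 0.108), and 3 white adipocyte markers passed without wildtype replicate 2. The macrophage count was 4 under the replicate block and without wildtype replicate 2, 2 without knockout replicate 1, and 0 under the filter at 5 RPKM. None of 8 endothelial markers (sum 182 to 207 RPKM in knockout and 180.1 to 204 RPKM in wildtype libraries), 8 fibroblast and mural markers (217 to 232 RPKM in knockout and 192 to 227 RPKM in wildtype libraries) and 3 blood and lymphocyte markers passed the test, but Col1a1, a fibroblast collagen, passed under the replicate block (limma, adjusted p = 0.0343), and 2 fibroblast and mural markers passed without wildtype replicate 2. Muscle also uses the 10 genes, and the part of muscle RNA in their values was not tested.

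None of the 10 genes passed the test for a difference between the knockout and wildtype libraries (limma, adjusted p of 0.05 over all tested genes), against 7.67% of 11562 tested genes (887, of which 804 higher and 83 lower in the knockout). At an unadjusted p under 0.05 the count was also 0 of 10, against 23.5% of all tested genes. The 95% intervals of the 10 differences lay between -0.38 and 0.44 on the log2 scale of RPKM + 1, which is a fold of 0.771 to 1.35. The median of the 10 log2 differences was 0.04, beside 0.08 over all tested genes, and their median size without sign was 0.06, beside 0.12. Of the 10, 7 had a positive and 3 a negative difference, but after each library was divided by its median-of-ratios size factor 2 were positive (Mfn1, Pink1) and 8 negative, so the signs of the small differences depend on the scaling. After that scaling again none of the 10 passed, against 5.55% of 11547 genes (641, with 495 or 4.29% higher and 146 or 1.26% lower in the knockout), and 1 of the 10, Opa1, had an unadjusted p under 0.05, against 21% of genes. In whole tissue, fewer cells of a type and less RNA per cell cannot be told apart.

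**Figure D1:**
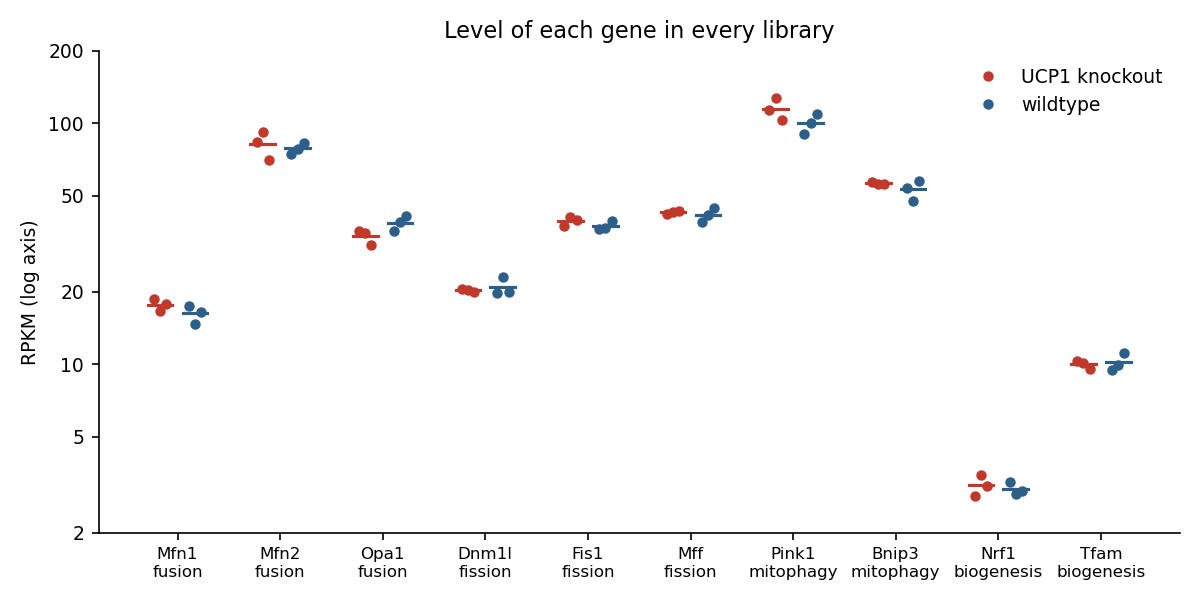
Levels of the 10 genes in RPKM (log axis) in each UCP1 knockout library (red) and wildtype library (blue), with bars at the group means. The genes run over a wide range, with Nrf1 at 2.84 to 3.48 and Pink1 at 89.9 to 128 RPKM, and the groups overlap for every gene except Opa1.

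**Figure D2:**
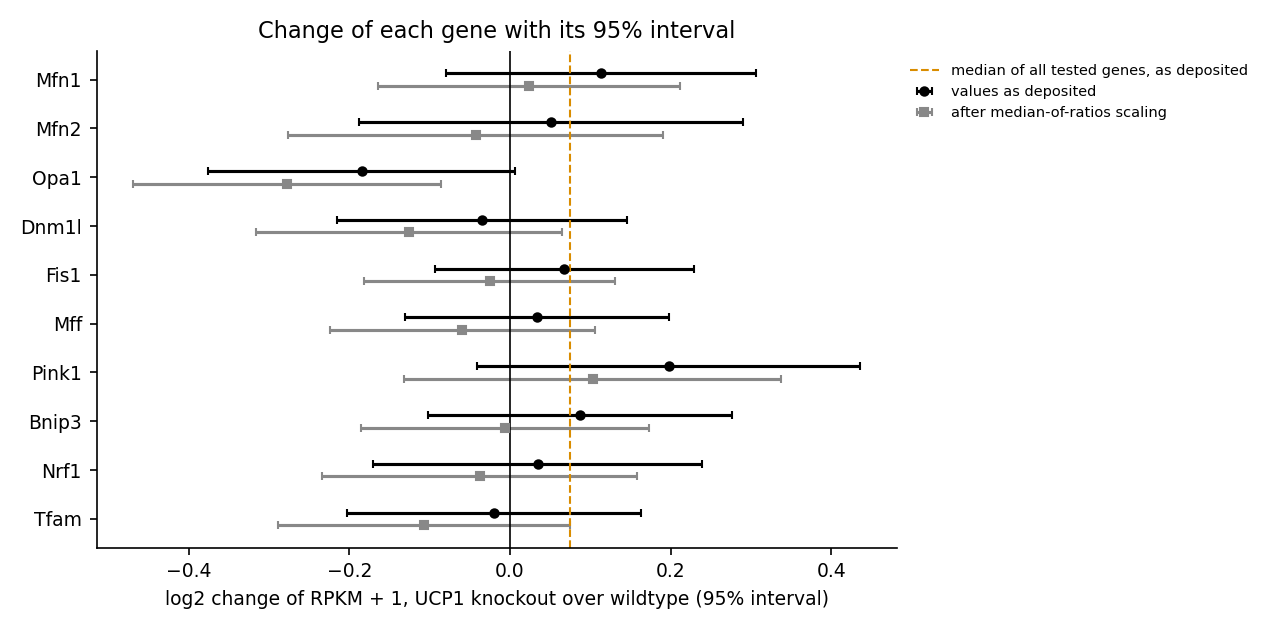
Log2 differences of RPKM + 1, UCP1 knockout over wildtype, with 95% intervals, for the values as deposited (black circles) and after median-of-ratios scaling (grey squares); the dashed line is the median of all tested genes as deposited. As deposited, all 10 intervals hold 0, and after scaling the interval of Opa1 does not.

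Promoter sequences of the 10 genes were read for motifs of factors known for mitochondrial genes, since Nrf1 and GABP are textbook regulators of Tfam. RefSeq windows (GRCm38.p6, 250 bases before to 50 after each start) were available for all 10 genes and searched on both strands. The NRF1 motif, GCGC followed by any 2 bases and GCGC, was found for Bnip3, Opa1 and Pink1 and is held by 6.23% of all 32851 windows and 7% of genes. The GABP motif CCGGAAGT was found for Fis1, Mfn1 and Tfam and is held by 3.89% of windows and 4.31% of genes. The ERR motif TNAAGGTCA (1.28% of windows) and the CRE motif TGACGTCA (1.79% of windows) were found for none of the 10. No gene of the 10 held both NRF1 and GABP motifs. A match is a description of letters and not a binding site. The 120 bases before the start are shown for Opa1 and Pink1, the genes with the most negative and most positive differences, for Bnip3, the other gene with the NRF1 motif, and for Tfam, with the motif in capitals, 5′ to 3′ on the gene's strand: chr16:29579214-29579333 (+) for Opa1, chr4:138326297-138326416 (-) for Pink1, chr7:138909507-138909626 (-) for Bnip3 and chr10:71238045-71238164 (-) for Tfam.
Opa1: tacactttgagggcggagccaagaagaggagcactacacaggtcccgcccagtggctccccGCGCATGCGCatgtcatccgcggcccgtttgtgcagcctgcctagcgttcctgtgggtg
Pink1: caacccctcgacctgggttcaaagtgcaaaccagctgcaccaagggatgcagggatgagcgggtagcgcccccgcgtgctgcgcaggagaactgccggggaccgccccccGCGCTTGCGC
Bnip3: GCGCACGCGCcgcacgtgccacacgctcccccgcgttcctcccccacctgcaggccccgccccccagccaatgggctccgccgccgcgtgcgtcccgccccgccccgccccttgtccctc
Tfam: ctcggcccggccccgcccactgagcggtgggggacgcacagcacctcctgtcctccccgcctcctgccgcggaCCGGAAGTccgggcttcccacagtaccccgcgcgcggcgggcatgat
The capitals mark the NRF1 motif in Opa1, Pink1 and Bnip3, and the GABP motif in Tfam. The genes with the NRF1 motif had log2 differences of -0.18 for Opa1, 0.20 for Pink1 and 0.09 for Bnip3, none of which passed the test. After scaling these were -0.28, 0.10 and -0.006, so the sign of Bnip3 depends on the scaling. A link between the motif and the differences was not tested.

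Opa1, the dynamin-like GTPase that fuses the inner membrane and shapes the cristae, had the most negative difference, and its promoter is shown above with the NRF1 motif. It measured 35.7, 34.9 and 31.3 RPKM in the knockout libraries and 35.9, 39.0 and 41.3 RPKM in the wildtype libraries. Every knockout library was below every wildtype library, although the highest knockout and the lowest wildtype values nearly met. Opa1 was the single gene of the 10 whose groups did not overlap, and of all tested genes 29.3% did not overlap in either direction and 5.11% had the knockout below. The means were 34.0 ± 2.37 RPKM in knockout libraries against 38.7 ± 2.70 RPKM in wildtype libraries (SD, n = 3 each), 12.3% lower in the knockout, with a log2 difference of -0.18 and a standard error of 0.08 (limma, adjusted p = 0.226). After scaling the difference was -0.28, with an interval of -0.47 to -0.09 and an adjusted p of 0.103 by limma. With the row of highest mean it was -0.10 (limma, adjusted p = 0.627), and with summed rows -0.13 (adjusted p = 0.531).

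The mitofusins, the GTPases of the outer membrane, were represented mostly by Mfn2. Mfn2 measured 83.3, 92.4 and 70.2 RPKM in knockout and 74.7, 78.5 and 82.7 RPKM in wildtype libraries. The wildtype values lay inside the knockout range, and the means were 82.0 ± 11.2 RPKM in knockout libraries against 78.6 ± 4.01 RPKM in wildtype libraries (SD, n = 3 each; log2 difference 0.05, limma adjusted p = 0.814). Mfn1 measured 18.6, 16.6 and 17.8 RPKM in knockout and 17.5, 14.8 and 16.6 RPKM in wildtype libraries. These groups overlapped too, with a log2 difference of 0.11 and an interval of -0.08 to 0.31 (limma, adjusted p = 0.463). The level of Mfn2 per level of Mfn1 within a library was 4.48, 5.57 and 3.95 in knockout and 4.28, 5.32 and 4.99 in wildtype, with overlapping groups.

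The groups overlapped for all 3 fission genes. Dnm1l, which codes for the constricting GTPase Drp1, measured 20.5, 20.4 and 19.995 RPKM in knockout and 19.7, 23.0 and 19.9 RPKM in wildtype libraries. The knockout values all lay within the wildtype range, with a log2 difference of -0.04 (limma, interval -0.22 to 0.15, adjusted p = 0.834). Mff, a membrane adaptor that recruits Drp1, measured 42.0, 42.7 and 43.3 RPKM in knockout and 39.1, 41.7 and 44.3 RPKM in wildtype libraries. Here too the knockout values lay inside the wildtype range (log2 difference 0.03, limma adjusted p = 0.823). Fis1, a small outer membrane protein tied to fission, measured 37.5, 40.9 and 39.6 RPKM in knockout and 36.4, 36.8 and 39.2 RPKM in wildtype libraries. Its groups overlapped, with a log2 difference of 0.07 and an interval of -0.09 to 0.23 (limma, adjusted p = 0.612).

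Pink1, the kinase that marks depolarised mitochondria for removal, was the most abundant of the 10 and had the most positive difference. It measured 114, 128 and 103 RPKM in knockout and 89.9, 100.4 and 109.5 RPKM in wildtype libraries. The lowest knockout library was below the highest wildtype library. The means were 115 ± 12.4 RPKM in knockout libraries against 99.9 ± 9.79 RPKM in wildtype libraries (SD, n = 3 each), 14.9% higher in the knockout, with a log2 difference of 0.20 and an interval of -0.04 to 0.44 (limma, adjusted p = 0.293). After scaling the difference was 0.10, without knockout replicate 2 it was 0.12 and without wildtype replicate 1 also 0.12.

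Bnip3, an outer membrane mitophagy receptor that is also a known hypoxia target, measured 57.2, 56.3 and 55.9 RPKM in knockout and 54.1, 47.8 and 57.8 RPKM in wildtype libraries. The knockout values were tightly grouped inside the wildtype range. The means were 56.5 ± 0.673 RPKM in knockout libraries against 53.2 ± 5.03 RPKM in wildtype libraries (SD, n = 3 each; log2 difference 0.09, limma adjusted p = 0.569).

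The biogenesis factors were the least abundant of the 10. Tfam measured 10.3, 10.2 and 9.60 RPKM in knockout and 9.499, 9.97 and 11.1 RPKM in wildtype libraries. The groups overlapped fully, with a log2 difference of -0.02 and an interval of -0.20 to 0.16 (limma, adjusted p = 0.910). Nrf1, a transcription factor of respiratory chain genes, measured 2.84, 3.48 and 3.14 RPKM in knockout and 3.26, 2.90 and 2.99 RPKM in wildtype libraries. Its groups also overlapped (log2 difference 0.03, interval -0.17 to 0.24, limma adjusted p = 0.856). Among the genes with a protein-coding Ensembl row of known length, Nrf1 had the thinnest data. Its best covered row of this kind implied 115 to 157 reads per library, against 608 to 708 for Tfam and 5342 to 6378 for Mfn2. Fis1 and Bnip3 had no such row, and the row tested for each gene was a RefSeq row.

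The order of levels in the knockout libraries was Pink1, Mfn2, Bnip3, Mff, Fis1, Opa1, Dnm1l, Mfn1, Tfam and Nrf1, and no library of a gene overlapped with those of its neighbours in this order. In the wildtype libraries the order of means was the same except that Opa1 stood above Fis1. There the libraries of Opa1 overlapped with those of both Mff and Fis1, and Opa1 exceeded Fis1 in 2 of 3 libraries. The ratio of Fis1 to Opa1 was 1.05, 1.17 and 1.27 in knockout and 1.01, 0.944 and 0.949 in wildtype libraries, a comparison chosen after the values were seen and not tested. The other ratios computed overlapped between the groups. They were Mfn2 to Mfn1, Opa1 to Dnm1l (mean 1.67 in knockout and 1.86 in wildtype) and Mff to Dnm1l (2.10 and 2.01). The order and these ratios are those of the row used for each gene. With the rows of highest mean, Opa1 averaged 41.3 and Fis1 40.9 RPKM in knockout libraries. In wildtype libraries these rows averaged 44.5 and 38.9 RPKM, so the mean of Opa1 then stood above that of Fis1 in both groups. In knockout replicate 3, however, the Opa1 row was at 36.8 RPKM and the Fis1 row at 41.2 RPKM. With this choice of rows Mfn1 (mean of all libraries 31.1 RPKM) also stood above Dnm1l (28.6 RPKM). Among all tested genes Pink1 was above 96.8%, Mfn2 above 95.6% and Bnip3 above 93.2%, while Tfam was above 64.3% and Nrf1 above 28.1%. Wildtype replicate 3 was the highest wildtype library for 7 of the 10 genes and wildtype replicate 1 the lowest for 7, while knockout replicate 3 was the lowest knockout library for 6. Replicate 3 had the lowest summed muscle marker level in both groups.

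The table gives 112 transcript rows for the 10 genes, and rows of a gene share reads, so they are views of the same data and not replicates. All 16 Opa1 rows had a lower mean in the knockout, and in 4 of them the groups did not overlap. Of these 4, the 2 RefSeq rows and the Ensembl row of 6230 bases had nearly equal log2 differences (-0.1847, -0.1845 and -0.1849). All 10 Dnm1l rows also had a lower mean in the knockout, while all 11 Mfn2, 6 Fis1, 6 Pink1 and 4 Bnip3 rows had a higher mean in the values as deposited. Nrf1 had 24 rows higher and 4 lower in the knockout, at row means between 0.497 and 3.91 RPKM, and Tfam had 1 row higher and 6 lower. For Mfn1, 10 of 11 rows were higher in the knockout and the groups of 2 did not overlap, with the knockout above. For Mff, 10 rows were higher and 3 lower, and 1 of the lower rows, with a mean of 2.69 RPKM, did not overlap. By the row used for each gene, 24.2% of all tested genes had the knockout above without overlap and 5.11% below. The share over all deposited rows was not counted.

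**Figure D3:**
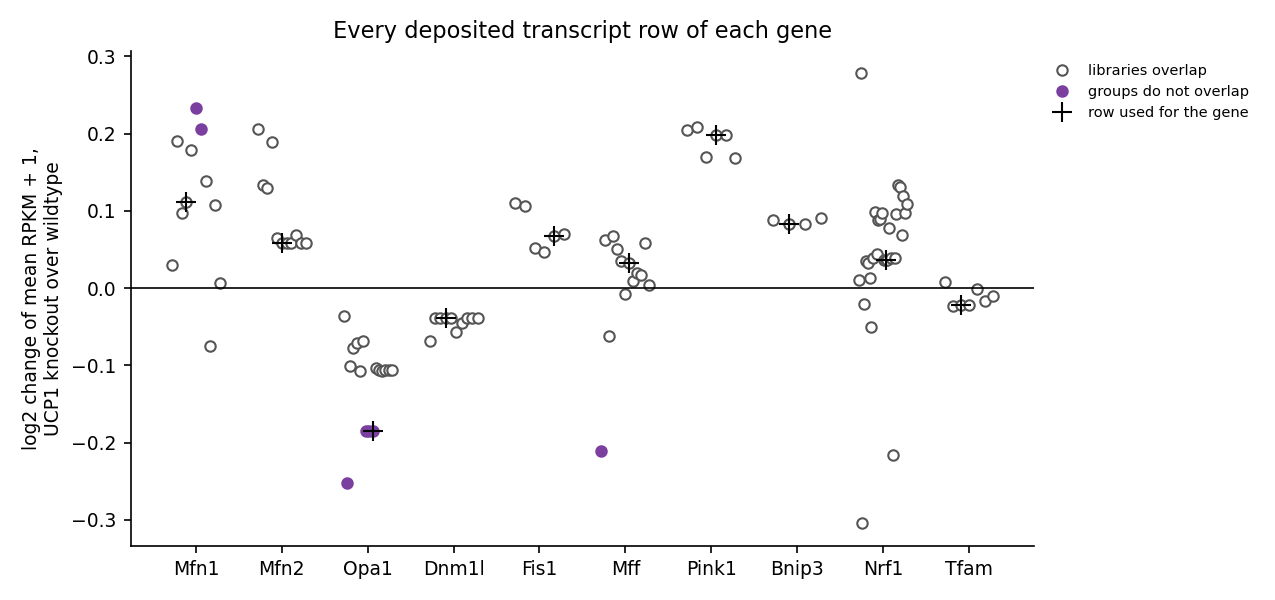
Log2 difference of mean RPKM + 1, UCP1 knockout over wildtype, for each of the 112 deposited transcript rows by gene; filled points are rows whose groups do not overlap and crosses mark the row used for the gene. The 16 Opa1 and 10 Dnm1l rows all lie below 0, and the Nrf1 rows spread on both sides of it.

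A long and a short protein-coding Ensembl row of Opa1 were set side by side, a pair chosen after the row values were seen. The long row (6230 bases) and the short row (3230 bases) end their coding sequence at the same stop codon, and 98.5% of the bases held by the long row alone lie after it. The long row holds 3054 bases that the short row lacks, and the short row holds 54 that the long row lacks. The extra 3000 bases below are the difference in length, so the level over them is approximate. The other rows did not order by length: a retained-intron row of 653 bases had the most negative log2 difference (-0.25, groups not overlapping), and one of 4017 bases had -0.11 with overlapping groups. The short row measured 43.4, 42.4 and 36.1 RPKM in knockout and 40.8, 40.9 and 49.7 RPKM in wildtype libraries, and its groups overlapped. Reads of the long row beyond those of the short row gave 24.1, 23.6 and 23.1 RPKM over the extra 3000 bases in knockout and 27.2, 33.3 and 28.4 RPKM in wildtype libraries. These groups did not overlap, with a log2 difference of -0.33. As the pair was chosen on its values, and an exact permutation test of 3 against 3 libraries cannot go below p = 0.1, no test is read from it. Reads beyond the short row per read of the short row were 0.517, 0.517 and 0.593 in knockout and 0.620, 0.757 and 0.531 in wildtype libraries, and these groups overlapped.

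**Figure D4:**
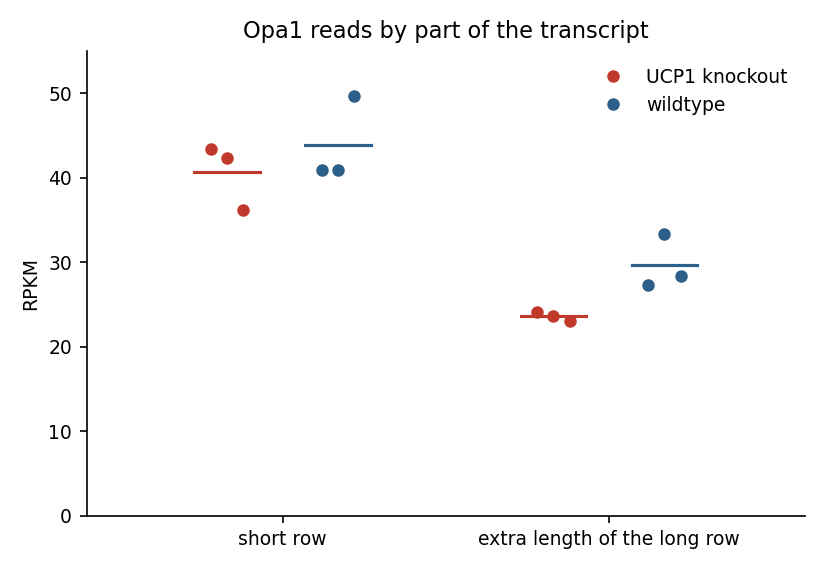
Opa1 levels in RPKM over the short row and over the extra length of the long row, in each UCP1 knockout library (red) and wildtype library (blue), with bars at the means. Over the extra length the knockout libraries lie at 23.1 to 24.1 RPKM and the wildtype libraries at 27.2 to 33.3 RPKM, while over the short row they overlap.

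A like comparison for Tfam gave no such separation. Of the bases held by the longer Tfam row alone, 88.3% lie after the shared stop codon, against 98.5% for Opa1. Over the extra 3388 bases of the longer Tfam row the level was 7.54, 7.50 and 6.97 RPKM in knockout and 7.52, 6.98 and 8.12 RPKM in wildtype libraries, and the groups overlapped.

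Other genes of the same processes were read beside the 10. Among 20 further tested fusion and inner membrane genes, 1 rose and none fell (median log2 difference 0.03), against 6.95% of all tested genes higher and 0.718% lower in the knockout. It was Pld6, a phospholipase of the mitochondrial surface, at 4.03 ± 0.359 RPKM in knockout libraries against 2.82 ± 0.242 RPKM in wildtype libraries (SD, n = 3 each; limma, log2 difference 0.40, adjusted p = 0.0351), and it did not pass after scaling (adjusted p = 0.0803) or without any one library except wildtype replicate 3 (adjusted p 0.0723 to 0.132). The proteases that cleave Opa1 protein did not pass: Oma1 averaged 4.17 ± 0.423 RPKM in knockout libraries against 4.29 ± 0.144 RPKM in wildtype libraries, and Yme1l1 averaged 16.7 ± 0.713 RPKM in knockout libraries against 16.6 ± 0.878 RPKM in wildtype libraries (SD, n = 3 each).

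None of 15 further fission genes passed the test (median log2 difference 0.08). The nearest was Tbc1d15, a partner of Fis1, at 11.2 ± 0.216 RPKM in knockout libraries against 9.05 ± 0.852 RPKM in wildtype libraries (SD, n = 3 each; limma, adjusted p = 0.0745), and without wildtype replicate 3 it passed (adjusted p = 0.0364). None of 30 further mitophagy genes passed either (median 0.09). Park7, a redox protein linked to Pink1 and Parkin, had the smallest p, at 72.3 ± 1.94 RPKM in knockout libraries against 61.9 ± 3.84 RPKM in wildtype libraries (SD, n = 3 each; limma, adjusted p = 0.111). Park2, the gene of Parkin, was near the lower limit of the test at 1.92 ± 0.254 RPKM in knockout libraries against 1.94 ± 0.351 RPKM in wildtype libraries, and Bnip3l, the close relative of Bnip3, averaged 17.6 ± 0.812 RPKM in knockout libraries against 16.7 ± 0.421 RPKM in wildtype libraries (SD, n = 3 each). Calcoco2, an autophagy receptor, is listed at 0 in all libraries.

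In the general autophagy machinery 2 of 33 genes rose and none fell (median log2 difference 0.09), near the 6.95% of all tested genes that were higher. Gabarapl1, an ATG8-family protein that coats the autophagosome and binds Bnip3-type receptors, measured 128, 129 and 139 RPKM in knockout and 88.3, 79.3 and 105 RPKM in wildtype libraries. Every knockout library was above every wildtype library, as for 24.2% of all tested genes. Gabarapl1 passed the test (limma, log2 difference 0.55, adjusted p = 0.0162), also after scaling (adjusted p = 0.0377). But the adjusted p by limma was 0.0561 to 0.0607 when any of the knockout replicates or wildtype replicate 1 was left out. Wipi1, a lipid-binding protein of early autophagosomes, averaged 6.58 ± 0.346 RPKM in knockout libraries against 5.03 ± 0.068 RPKM in wildtype libraries (SD, n = 3 each; limma, adjusted p = 0.0317). Its adjusted p by limma was 0.0921 after scaling and 0.0516 to 0.126 without each library in turn.

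Of 18 further biogenesis regulators 2 rose and none fell (median log2 difference 0.13), again beside 6.95% of all tested genes higher. They were Ncor1, a nuclear co-repressor, at 17.8 ± 0.802 RPKM in knockout libraries against 13.8 ± 0.956 RPKM in wildtype libraries (limma, adjusted p = 0.0326), and Prkaa2, a catalytic subunit of the energy sensor AMPK that is abundant in muscle, at 7.74 ± 1.09 RPKM in knockout libraries against 5.43 ± 0.407 RPKM in wildtype libraries (adjusted p = 0.0440; SD, n = 3 each). Neither passed after scaling (limma, adjusted p = 0.0910 for Ncor1 and 0.101 for Prkaa2). Without a library other than wildtype replicate 3 Ncor1 did not pass (limma, adjusted p 0.0662 to 0.129), nor did Prkaa2 without a library other than knockout replicate 3 (0.0506 to 0.158). With the row of highest mean the log2 difference was 0.16 for Ncor1 (limma, adjusted p = 0.427) and 0.44 for Prkaa2 (adjusted p = 0.0608). The coactivators that act with Nrf1 did not pass: Ppargc1a averaged 25.5 ± 3.76 RPKM in knockout libraries against 22.8 ± 4.71 RPKM in wildtype libraries, and Ppargc1b averaged 20.2 ± 2.91 RPKM in knockout libraries against 17.5 ± 1.83 RPKM in wildtype libraries. Esrra, a nuclear receptor of mitochondrial genes, averaged 67.9 ± 3.59 RPKM in knockout libraries against 68.8 ± 9.97 RPKM in wildtype libraries, and Gabpa, a subunit of GABP, averaged 17.7 ± 2.18 RPKM in knockout libraries against 13.6 ± 1.94 RPKM in wildtype libraries (limma, adjusted p = 0.973 for Esrra and 0.112 for Gabpa).

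Beside Tfam, 1 of 26 further genes of mitochondrial DNA upkeep and transcription rose, against 6.95% of all tested genes. It was Top1mt, the mitochondrial topoisomerase, at 5.25 ± 0.0622 RPKM in knockout libraries against 3.89 ± 0.380 RPKM in wildtype libraries (SD, n = 3 each; limma, adjusted p = 0.0366). Its adjusted p by limma was 0.0873 after scaling and 0.0752 to 0.125 without any library other than wildtype replicate 1. The median log2 difference of this list was 0.06, and after scaling none of it rose and 1 gene fell (beside 1.26% of all genes), Slirp, an RNA-binding partner of mitochondrial transcripts, named after its value was seen. None of 13 markers of mitochondrial mass passed (median 0.04), and their summed level was 2653 to 2919 RPKM in knockout and 2603 to 2787 RPKM in wildtype libraries. The nearest was Vdac3, an outer membrane channel, at 12.97 ± 1.41 RPKM in knockout libraries against 10.01 ± 0.667 RPKM in wildtype libraries (limma, adjusted p = 0.0698), and without knockout replicate 1 it passed (adjusted p = 0.0497).

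**Figure D5:**
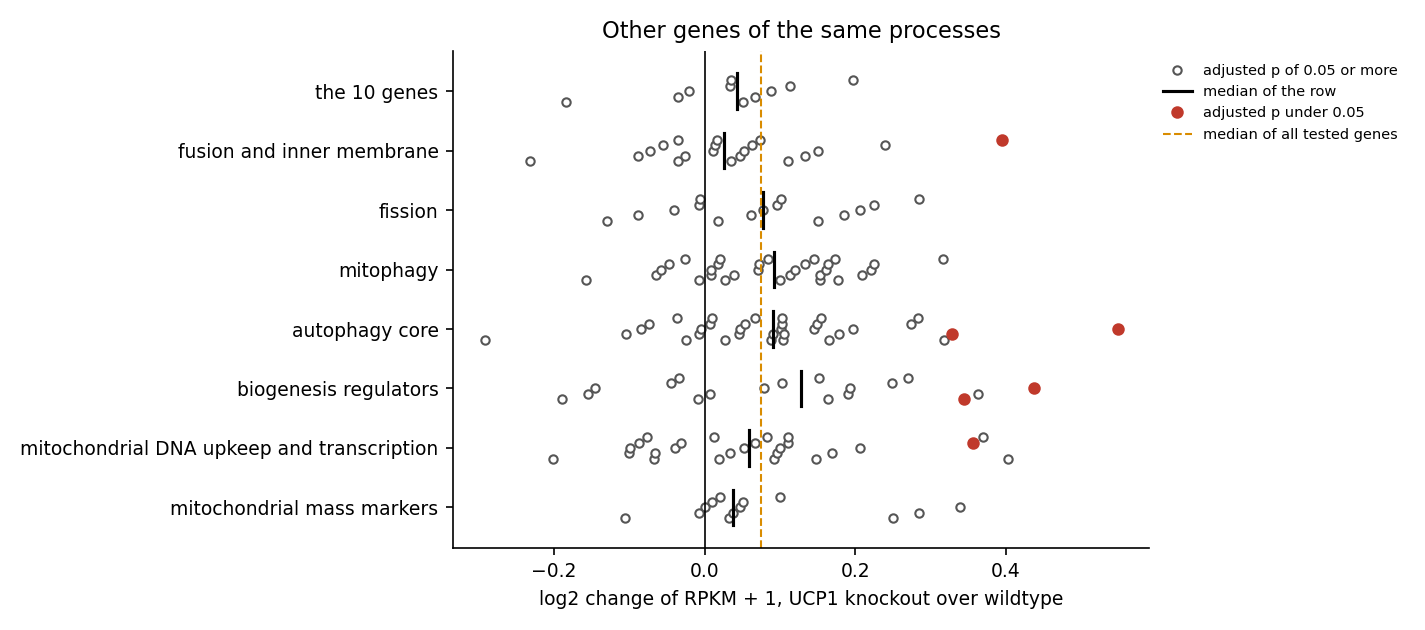
Log2 differences of RPKM + 1, UCP1 knockout over wildtype, for the 10 genes and for 7 lists of other genes of the same processes; filled points passed limma's adjusted p of 0.05, black bars are medians and the dashed line is the median of all tested genes. The medians of the 7 lists lie between 0.03 and 0.13, and the few genes past the threshold all lie on the positive side.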

How the data were processed

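Per the labels' protocols, total RNA went into libraries of the TruSeq kit v2. CASAVA and bcl2fastq are named, without versions, by the submitters' processing notes. Aligner, genome build, annotation and use of strand were not given in the sources used here. A deposited table holds values of the authors for 168326 transcript rows in 6 libraries. No header names the unit. Low products of deposited value and Ensembl transcript length fell on whole multiples of a library step (95.9% to 96.1% within 0.1 reads), so the values were read as RPKM scores made by the authors, and the steps gave the depths. Rows without a gene identifier (23170, 13.8%) were left out, and 1 row per gene was kept, RefSeq rows first, then the highest mean. Reads of overlapping, antisense or near-identical genes cannot be separated.

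The test was limma 3.58.1 (R 4.3.3) on log2(RPKM + 1), with an intensity trend and genotype as single factor over the 6 libraries, for genes whose mean reached 1 RPKM in a group. Two-sided p-values were adjusted by Benjamini-Hochberg over every gene tested, and the threshold was 0.05. The scale understates differences of low genes, Nrf1 and Park2 among them. The fit was tested on simulated data. The members and lists were chosen with earlier results of these data known. All 10 genes are given with values. From each other list the genes that passed were named (the 4 with the smallest adjusted p of longer lists), or, in a list without such genes, that of smallest p, and Ppargc1a, Ppargc1b, Esrra, Gabpa, Park2, Bnip3l, Oma1 and Yme1l1 in any case. Of the marker lists fewer genes are named. Alternatives were median-of-ratios scaling, other pseudocounts, filters and row choices, limma without trend or with robust moderation, a replicate block, and leaving out each library.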

Additional observations from a re-analysis of the deposited data

How the results depend on the processing

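None of the 10 genes passed the threshold in any of the alternatives run, with a lowest adjusted p of 0.103 by limma (Opa1, scaling); Nrf1 and Pld6 have no value under the filter at 5 RPKM. Over all genes 887 passed, against 454 under the filter at 5 RPKM and 455 to 849 with a library left out (474 without knockout replicate 1 and 455 without knockout replicate 2). Under scaling the log2 difference was -0.0374 for Nrf1, -0.0428 for Mfn2, -0.0253 for Fis1, -0.0593 for Mff, -0.0058 for Bnip3, -0.0782 for Yme1l1 and -0.0183 for Bnip3l. It was 0.0022 for Tfam and 0.0597 for Park2 with the row of highest mean, and 0.0082 for Esrra with summed rows. With a library left out it ranged between -0.0653 and 0.0380 for Tfam, -0.0218 and 0.09003 for Nrf1, -0.0389 and 0.157 for Mfn2, -0.0731 and 0.0330 for Dnm1l, -0.0104 and 0.0775 for Mff, -0.0886 and 0.0290 for Oma1, -0.0165 and 0.0517 for Yme1l1, -0.0776 and 0.0884 for Park2, -0.0115 and 0.263 for Ppargc1a, and -0.133 and 0.0592 for Esrra. It kept its sign but ranged between -0.237 and -0.128 for Opa1, 0.0495 and 0.163 for Mfn1, 0.0397 and 0.101 for Fis1, 0.0139 (without wildtype replicate 2) and 0.148 for Bnip3, and 0.120 and 0.274 for Pink1, and for Mfn1 it was 0.0089 with the row of highest mean. The fusion list had 0 genes past the threshold under scaling, no filter, the filter at 5 RPKM, the highest row, summed rows and the replicate block, and 0 to 1 with a library left out. The fission list had 1 under no filter and summed rows and 0 to 1 with a library left out. The autophagy list had 1 under scaling, no filter and the replicate block and 0 to 2 with a library left out. The biogenesis list had 0 under scaling, the highest row and the replicate block, 1 under no filter, the filter at 5 RPKM and summed rows, and 0 to 1 with a library left out. The list of mitochondrial DNA upkeep had 0 under no filter, the filter at 5 RPKM, the highest row, summed rows and the replicate block and 0 to 1 with a library left out, and the mass markers 0 to 1. The causes of these differences were not tested. Deviations of same-numbered libraries from their group means had r = 0.0919, 0.0384 and -0.0184 across genes, which are not independent replicates. Between libraries of unlike number r ranged between -0.137 and 0.0703. With 3 libraries per group these values cannot tell whether the replicate numbers mark a pairing. With the replicate block 775 genes and 0 of the 10 passed. With 3 libraries per group, differences inside the intervals given cannot be resolved. Nrf1 has the fewest reads of the genes for which reads were implied, which leaves out Fis1 and Bnip3.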

Other observations

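The coefficient of variation over the 3 libraries of a group was smaller in the knockout for 6 of the 10 genes, beside 61.3% of all tested genes. Its median over the 10 genes was 5.02% in knockout and 7.57% in wildtype libraries, and over all tested genes 7.84% in knockout and 9.90% in wildtype libraries.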
